A study of Mus musculus with 2 samples.

Results

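The 4 JAK kinases, Jak1, Jak2, Jak3 and Tyk2, and 4 non-receptor tyrosine phosphatases that restrain cytokine signalling, Ptpn1, Ptpn2, Ptpn6 and Ptpn11, were read from the RNA of splenic Treg cells. They were chosen by gene symbol and are 8 of the 20938 genes listed. All 8 passed the filter of a mean level of at least 1 over both libraries, which 16659 genes passed. RNA-seq gave 1 library from Foxp3-Mettl14f/+ cKO mice (cKO) and 1 library from littermate controls (Ctrl), both on day 7 after transplantation. The recipients had a C57BL/6J background, were made diabetic with streptozotocin and received BALB/c islets under the kidney capsule, without the antibody treatment that the study used elsewhere to induce tolerance. In the cKO mice, Cre driven by the Foxp3 promoter removes 1 of the 2 Mettl14 alleles in Foxp3-expressing cells, so that the model is heterozygous and limited to cells in which that promoter is or was active. The methods name floxed mice without Cre, Mettl14f/f, as the littermate controls, while the genotype label of that library reads wild type. The label of the other library names a Foxp3 knockdown and its title KD, while the protocol label names the Foxp3-Mettl14f/+ cKO mice. Age, sex and whether cells of several mice were pooled are not given in the sources used here. Treg cells were isolated with a CD4+CD25+ kit, by depletion of other cells and then positive selection.

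JAK kinases sit on the inner tails of cytokine receptors that have no kinase of their own. When a cytokine brings receptor chains together, the JAKs phosphorylate each other, the receptor and then STAT transcription factors, which enter the nucleus. Tyrosine phosphatases undo these steps: PTP1B (Ptpn1) and TC-PTP (Ptpn2) act on JAKs and STATs, SHP-1 (Ptpn6) is recruited by inhibitory receptors, and SHP-2 (Ptpn11) can act both against JAK-STAT signalling and for the Ras pathway. Treg cells depend on IL-2, whose receptor signals through JAK1 and JAK3 to STAT5, a requirement for Foxp3 expression. METTL14 is a subunit of the enzyme complex that writes N6-methyladenosine (m6A) into mRNA, most often in sequences such as GGACT near stop codons.

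The m6A mark was not measured in these libraries, but matches to 1 sequence that it can occupy, GGACT, can be shown. Other sequences that can carry the mark were not searched. GGACT was searched on the sense strand of 1 GENCODE vM21 transcript per gene on GRCm38. Among the 8 genes, Jak3 held the most sites, 10 in 4019 bases of transcript, which is 2.49 per kb. That density exceeded 94.6% of the 16302 coding genes compared, whose median was 1.05 per kb (quartiles 0.62 and 1.54). Ptpn6 held the fewest, 1 site in 2308 bases, or 0.433 per kb, and 15.8% of the genes had a lower density. Ptpn1 held 4 sites, all 4 after the stop codon, whereas 9 of the 10 Jak3 sites lay in the coding sequence and none after the stop. In a window of 100 bases on each side of the stop codon, 0 of the 8 genes held GGACT, against 24.0% of 14928 genes with a full window. The site nearest the stop codon is shown for the 3 genes with the largest log2 fold changes in either direction, Ptpn1, Ptpn6 and Jak2. It is also shown for Jak3 with its many sites, and for the most abundant member, Jak1. Ptpn11 is shown because its site came closest to the stop among the members other than Ptpn2, whose nearest site was not located. The 5 letters of the motif are in capitals within 21 letters of the transcript, read 5′ to 3′.
Ptpn1: gctgggcaGGACTgtaaagtt
Ptpn6: aactcaggGGACTtctatgac
Jak2: aattgcatGGACTatgagcca
Jak3: ctgggaaaGGACTactacgtg
Jak1: atagcaaaGGACTgtgccgct
Ptpn11: cactggctGGACTgcctcttg

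The Ptpn1 stretch lies at chr2:167977082-167977102 on the plus strand of GRCm38, in the 3′ UTR and 452 bases after the last coding base. The Jak1 stretch lies at chr4:101153171-101153191 on the minus strand, in the 3′ UTR, 312 bases after the last coding base. The Ptpn11 stretch, at chr5:121134047-121134067 on the minus strand, is in the 3′ UTR, 109 bases after the last coding base. The Ptpn6 stretch at chr6:124732440-124732460 on the minus strand is exonic and coding, 1614 bases before the last coding base. The Jak2 stretch at chr19:29298660-29298680 on the plus strand is exonic and coding as well, 1035 bases before the last coding base. The Jak3 stretch at chr8:71686073-71686093 on the plus strand is also exonic and coding, 381 bases before the last coding base. These matches describe letters in the reference and say nothing of whether any of them was methylated in these cells.

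The deposited values are read counts scaled by a single size factor for each library, called levels here. They rest on 20239325 reads in Ctrl and 18327535 in cKO. With 1 library per genotype there was no replicate check and no test between genotypes. Intervals of fold changes are 95% Clopper-Pearson intervals of counting error only. Every fold change of a gene is log2 of cKO over Ctrl with a pseudocount of 1 added to each level. Mettl14 had a level of 917 in Ctrl and 741 in cKO (948 and 652 reads). Its log2 fold change was −0.31 (−0.45 to −0.16), the direction of the cKO label, and −0.02 once the T cell core markers were set equal in both libraries. Foxp3 had a level of 1497 in Ctrl and 1548 in cKO, a log2 fold change of 0.05 (−0.06 to 0.15), and 0.33 with the T cell core markers equal. The Foxp3 knockdown of the genotype label was thus not seen in its mRNA. Protein is not measured by these libraries, and the paper reported lower FOXP3 protein by western blot in Treg cells of the cKO mice. The Treg marker Il2ra, which encodes CD25, stood at 776 in Ctrl and 1242 in cKO, and the helper T cell coreceptor Cd4 at 8098 and 5297. Neither gene stands for its whole list. For the 14 Treg markers the median fold change was −0.02 on the log2 scale, 2 being at least 1.5-fold higher and 2 lower. Among the 16 T cell core markers, none was at least 1.5-fold higher and 2 were lower. Markers of other cells were abundant in both libraries and uneven between them. All 12 B cell markers and all 12 macrophage markers were at least 1.5-fold higher in cKO, 11 of 12 erythroid markers were at least 1.5-fold lower, and the median of the T cell core markers was −0.28. In bulk RNA, fewer cells of a type and less RNA per cell cannot be told apart.

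Ptpn1 was the member with the largest fold change between the libraries, at 3791 in Ctrl and 6069 in cKO, and it was the only member past a 1.5-fold difference on the deposited scale. Ptpn6, Jak2 and Jak1 were higher in cKO under all 5 scalings tried, by less than 1.5-fold on the deposited scale. Jak3 had the lowest fold change of the 8. Over all genes tested, 17.2% were at least 1.5-fold higher in cKO and 24.2% at least 1.5-fold lower, against 1 and 0 of the 8 members. Among the 4897 genes at a mean level of 1000 or more, which include all 8 members, the shares were 10.1% and 5.17%. With 1 member of 8 past 1.5-fold, the count is near those shares and is no result about the members.

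**Figure D1:**
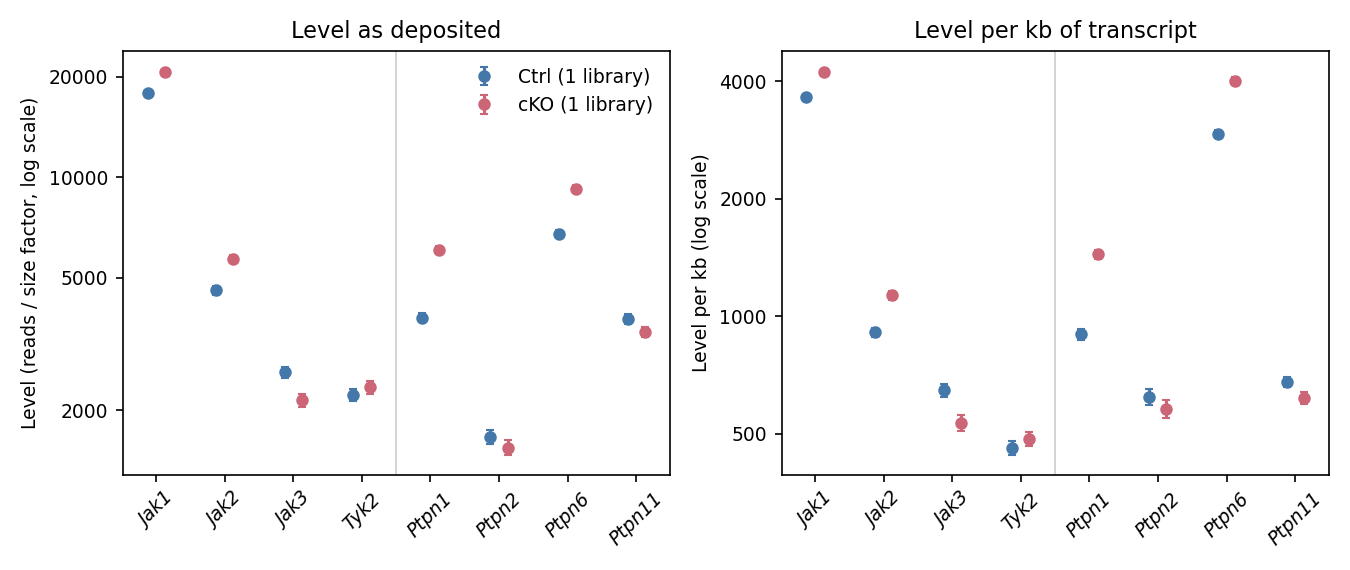
Level of each gene (left, reads divided by the size factor of the library) and level per kb of transcript (right) in the Ctrl library (blue) and the cKO library (red), on log axes, with 1 library per genotype and bars for the 95% Poisson counting interval of the reads. Jak1 stands highest in both panels at levels of 17900 and 20684, and the gap between the libraries is widest for Ptpn1.

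Among the kinases, Jak1 dominated. JAK1 pairs with JAK3 on the common gamma chain receptors and with JAK2 or TYK2 on interferon and gp130 receptors. Its gene, Jak1 (ENSMUSG00000028530.14, chr4:101152367-101265282, minus strand), had a level of 17900 in Ctrl and 20684 in cKO, from 18503 and 18189 reads. It ranked 74 of 20938 genes by level in Ctrl and 70 in cKO. The log2 fold change was 0.21 (0.18 to 0.24), which is 0.25 above the median of all genes and 0.15 above the median of genes at a mean level of 1000 or more. Jak1 held 65.6% of the reads of the 4 kinases in Ctrl and 67.0% in cKO.

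Jak2 encodes the kinase of the receptors for erythropoietin, growth hormone, GM-CSF and interferon gamma. The gene (ENSMUSG00000024789.13, chr19:29251828-29313080, plus strand) had a level of 4573 in Ctrl and 5697 in cKO (4727 and 5010 reads). Its log2 fold change of 0.32 (0.26 to 0.37) was the largest of the kinases and lay above that of 73.5% of all genes. Jak2 made up 16.8% of kinase reads in Ctrl and 18.5% in cKO.

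Jak3 encodes the kinase that binds the common gamma chain, and it is largely restricted to blood cells. The gene (ENSMUSG00000031805.17, chr8:71676296-71690575, plus strand) had a level of 2598 in Ctrl and 2141 in cKO, from 2686 and 1883 reads. The log2 fold change was −0.28 (−0.36 to −0.19) on the deposited scale and 0.0040 when the T cell core markers were set equal. On the deposited scale it thus lay close to the −0.28 median of those markers. Relative to the median of all genes Jak3 stood at −0.24, and 35.5% of genes had a lower value. The share of kinase reads from Jak3 was 9.52% in Ctrl and 6.94% in cKO. Insl3 shares 404 exon bases with Jak3 on the same strand, but its own level was 16.4 in Ctrl and 21.6 in cKO, small beside that of Jak3.

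Tyk2 encodes the JAK of the type I interferon, IL-10, IL-12 and IL-23 receptors. The gene (ENSMUSG00000032175.11, chr9:21104068-21131243, minus strand) had a level of 2216 in Ctrl and 2340 in cKO (2291 and 2058 reads). This was the smallest difference among the kinases, a log2 fold change of 0.08 whose counting interval, −0.01 to 0.17, held 0, and which became −0.012 when the libraries were scaled to their totals. Tyk2 shares 554 exon bases with the antisense gene 1700084C06Rik, which is not listed, and the reads of the 2 cannot be told apart without strand.

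Per kb of transcript, which allows genes to be compared, the order of the kinases in Ctrl was Jak1 (level per kb 3649), Jak2 (909), Jak3 (647) and Tyk2 (459). In cKO the same order held, with levels per kb of 4216, 1133, 533 and 485. The Poisson intervals of Jak3 (509 to 557) and Tyk2 (464 to 506) came close in cKO without overlap. In Ctrl the interval of Jak3 was 622 to 671.

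Log2 fold changes ran from −0.13 to 0.68 among the phosphatases and from −0.28 to 0.32 among the kinases. The upper end of the phosphatases was 1 gene, Ptpn1, and the next was Ptpn6 at 0.45. PTP1B, the product of Ptpn1, is anchored at the endoplasmic reticulum and dephosphorylates JAK2, TYK2 and the insulin receptor. Ptpn1 (ENSMUSG00000027540.13, chr2:167932057-167979385, plus strand) was read 3919 times in Ctrl and 5337 times in cKO. Its log2 fold change was 0.68 (0.62 to 0.74), a level 1.60-fold that of Ctrl, and 85.0% of genes had a lower value. Under the other scalings it ranged from 0.59, with the libraries scaled to their totals, to 0.96, with T cell core markers equal. The value stayed past 1.5-fold under each, but only barely with the library totals. Counting error does not cover the spread between animals: assuming a biological coefficient of variation of 0.2, an edgeR exact test of the 2 libraries gave Ptpn1 p = 0.10 and an adjusted p of 0.39. With that test and 1.5-fold together 0 members were called, against 6.45% of genes called higher and 9.75% called lower. An exact binomial test of the reads, which takes no such variation into account, was combined with the same 1.5-fold cut. Together they called Ptpn1 alone, against 14.8% of genes called higher and 17.5% lower. The counting intervals of Jak1, Jak2, Jak3, Ptpn2, Ptpn6 and Ptpn11 also leave out 0, at changes under 1.5-fold. That of Ptpn2 does so only barely, with an upper end of −0.00075. The 3 genes nearest to Ptpn1 in the plane of both log2 levels were Ncoa2 (distance 0.021), Pirb (0.026) and Tnrc18 (0.057), with log2 fold changes of 0.65, 0.71 and 0.61. Pirb encodes an inhibitory receptor of myeloid and B cells that recruits SHP-1. These distances rest on 2 libraries.

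Ptpn6 encodes SHP-1, which is found throughout blood cells and is brought to the membrane by receptors with inhibitory tyrosine motifs. The gene (ENSMUSG00000004266.15, chr6:124720707-124738714, minus strand) had a level of 6773 in Ctrl and 9247 in cKO, from 7001 and 8132 reads. The log2 fold change was 0.45 (0.40 to 0.50), which is 0.49 above the median of all genes. It moved to 0.73 with the T cell core markers equal. Ptpn6 supplied the most phosphatase reads in both libraries, 42.4% in Ctrl and 45.6% in cKO, while the share of Ptpn1 was 23.7% and 29.9%. Of its exon bases, 195 are shared with the antisense gene Gm20531, which is not listed.

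Ptpn2 and Ptpn11 went the other way on the deposited scale. Ptpn2 encodes TC-PTP, the close relative of PTP1B, with JAK1, JAK3 and STAT5 among its substrates. The gene (ENSMUSG00000024539.17, chr18:67665511-67724595, minus strand) had a level of 1660 in Ctrl and 1544 in cKO (1716 and 1358 reads), the lowest of the 8 in each library. The log2 fold change was −0.10, with a counting interval from −0.21 to −0.00075, and it became 0.18 with the T cell core markers equal. Ptpn11 encodes SHP-2. The gene (ENSMUSG00000043733.14, chr5:121130533-121191397, minus strand) had a level of 3755 in Ctrl and 3425 in cKO, from 3882 and 3012 reads. Its log2 fold change was −0.13 (−0.20 to −0.06) and became 0.15 with the T cell core markers equal. Relative to the median of all genes, Ptpn2 stood at −0.06 and Ptpn11 at −0.09. These 2 genes are thus near the middle of the distribution of all genes.

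Per kb of transcript, Ptpn6 led the phosphatases in Ctrl at 2934, followed by Ptpn1 (900), Ptpn11 (678) and Ptpn2 (622). In cKO the levels per kb were 4007, 1441, 619 and 579 in the same order. Across both classes, Jak2 stood just before Ptpn1 in Ctrl with overlapping intervals (883 to 935 and 872 to 929), and in cKO Ptpn1 was ahead of Jak2. The intervals of Ptpn11 and Ptpn2 overlapped in cKO. The order rests on the length used. With all exons of a gene counted as its length, Ptpn6 came to 3300 per kb and Jak1 to 2862 in cKO, Jak2 (1133) stood ahead of Ptpn1 (1097) in cKO, and Ptpn2 stood ahead of Ptpn11 in both libraries (531 and 501 in Ctrl, 494 and 457 in cKO).

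**Figure D2:**
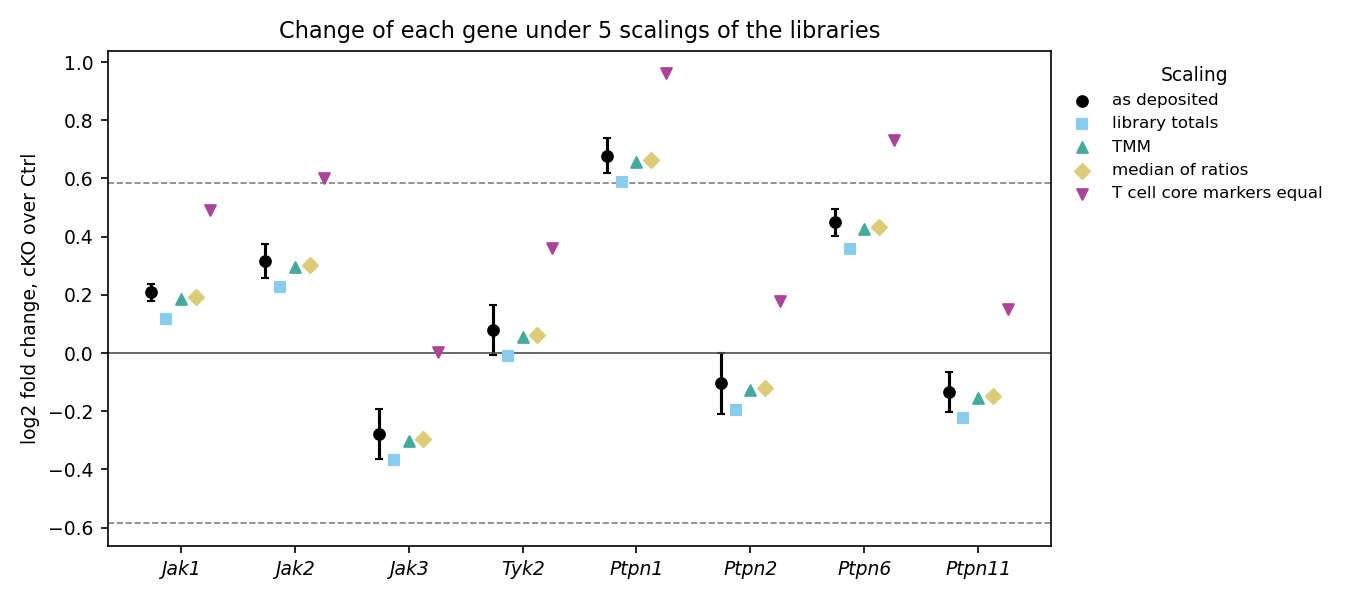
The log2 fold change of each gene, cKO over Ctrl, under 5 scalings of the libraries, with the 95% counting interval drawn on the deposited scale and dashed lines at 1.5-fold. Ptpn1 lies past the upper line under all 5, but only barely with the library totals. Jak3 (−0.28 as deposited, 0.0040 with T cell core markers equal), Ptpn2, Ptpn11 and Tyk2 change sign with the scaling.

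The choice of scaling moves all genes together. Setting the T cell core markers equal raised the median of all genes from −0.04 to 0.24 on the log2 scale, and with it the share of genes at least 1.5-fold higher went from 17.2% to 27.3% and the share at least 1.5-fold lower from 24.2% to 19.5%. Under that scaling 3 members, Jak2 (0.60), Ptpn1 (0.96) and Ptpn6 (0.73), were past 1.5-fold. Scaling to the library totals gave 15.1% higher and 26.6% lower.

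Ratios between members within a library do not depend on the scaling, and these were compared for all 28 pairs. The read ratio changed by at least 1.5-fold in 6 pairs and by at least 2-fold in 0. Ptpn1 was part of 4 of the 6 pairs. Pairs that share a gene are not independent of each other. The share over pairs of all genes was not computed, so the count is no result about the members. The ratio of Jak3 to Ptpn1 changed most, from 0.685 in Ctrl to 0.353 in cKO, a log2 change of −0.96 (−1.06 to −0.85). Ptpn1 and Ptpn11 had nearly equal reads in Ctrl, at a ratio of 1.01, and a ratio of 1.77 in cKO, a log2 change of 0.81 (0.72 to 0.90). The ratio of Ptpn1 to its close relative Ptpn2 went from 2.28 to 3.93, a log2 change of 0.78 (0.66 to 0.90).

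The ratio of Jak3 to Ptpn6 went from 0.384 to 0.232, with a log2 change of −0.73 (−0.83 to −0.63). Among the kinases, Jak2 to Jak3 was the only pair of 6 past 1.5-fold, at 1.76 in Ctrl and 2.66 in cKO. JAK1 and JAK3 act together on the IL-2 receptor, and the ratio of Jak1 to Jak3 reads went from 6.89 to 9.66, a log2 change of 0.49 (0.40 to 0.58) that stayed under 1.5-fold. The interval of 1 pair held 0, that of Ptpn2 to Ptpn11, at 0.03 (−0.10 to 0.15). These ratios cover counting error only and compare 2 libraries, in which B cell and macrophage markers also differed.

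**Figure D3:**
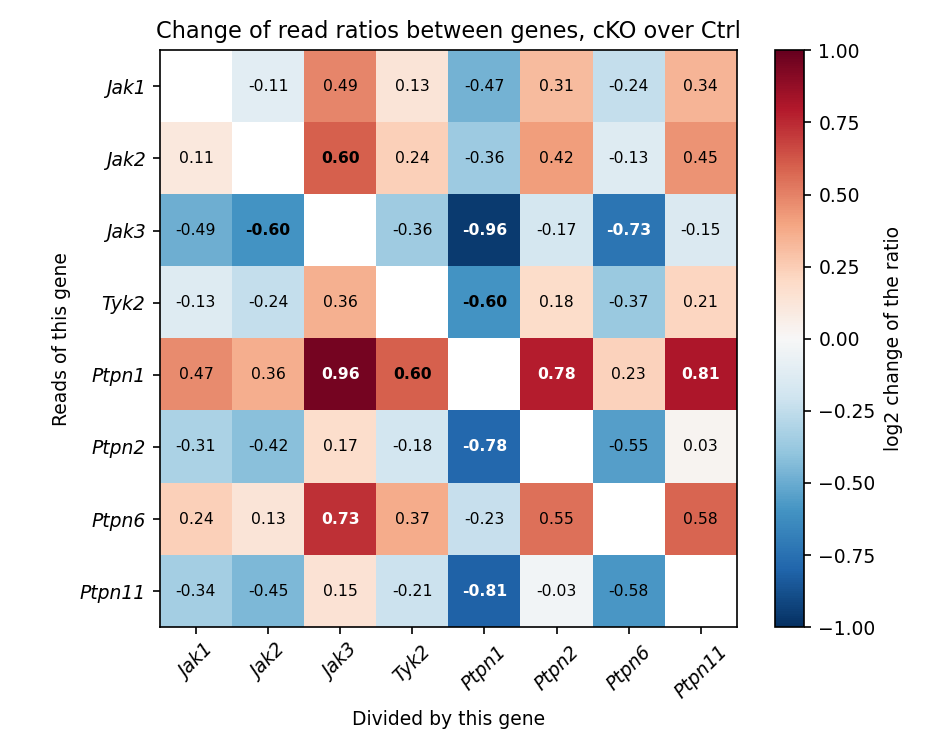
Log2 change, cKO over Ctrl, of the ratio of the reads of the gene in the row to those of the gene in the column, with changes of at least 1.5-fold in bold and red for a higher ratio in cKO. The row of Ptpn1 is red throughout, up to 0.96 against Jak3, and the row of Jak3 is blue throughout.

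Summed over each class, the kinases had 28207 reads and the phosphatases 16518 in Ctrl, a ratio of 1.71. In cKO they had 27140 and 17839 reads, a ratio of 1.52. The log2 change of the ratio was −0.17 (−0.21 to −0.13), under 1.5-fold. Without the most abundant gene of each class, Jak1 and Ptpn6, the ratio went from 1.02 to 0.922, a log2 change of −0.15 (−0.20 to −0.09). Both ratios include Ptpn1, the member with the largest fold change, at 3919 reads in Ctrl and 5337 in cKO. The ratio without Ptpn1 was not computed, so these values do not show a shift shared by the members of a class. The summed level of the kinases was 27287 in Ctrl and 30863 in cKO, and that of the phosphatases 15979 and 20286.

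The relatives of the 8 genes were read as families. Of 28 other non-receptor tyrosine kinases, 26 were tested, with 10 at least 1.5-fold higher, 2 lower and a median log2 fold change of 0.29. The highest was Blk, a Src family kinase of the B cell receptor, at 400 in Ctrl and 2025 in cKO, a log2 fold change of 2.34 (2.19 to 2.50). Syk and Lyn, kinases of B cells and myeloid cells, had log2 fold changes of 1.30 and 1.17. Lck and Zap70, which serve the T cell receptor and are also on the T cell core list, had −0.22 and −0.23 on the deposited scale. The lowest at a mean level of 10 or more was Fer, at −0.69 (−1.06 to −0.33).

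Of 13 other non-receptor tyrosine phosphatases, 12 were tested, with 3 at least 1.5-fold higher, 2 lower and a median log2 fold change of 0.22. Ptpn14 was highest, at 256 and 515, with a log2 interval from 0.78 to 1.23, and Ptpn5 lowest, at 67.7 and 26.2, or −1.34 (−2.12 to −0.67). Ptpn22, the phosphatase of Lck and ZAP70 in lymphocytes, stood at 3881 and 7090, a log2 fold change of 0.87 (0.81 to 0.93), larger than that of any of the 4 phosphatase members. Its partner Csk, the kinase that restrains the Src family, stood at 5247 and 6724 (0.36, 0.30 to 0.41). Ptpn22, Csk, Syk and Lyn were picked after their values were seen. Of 21 receptor-type phosphatases, 18 were tested, with 3 higher, 5 lower and a median of 0.04. Ptprc, which encodes the leukocyte antigen CD45, a phosphatase of both JAKs and Lck, had a log2 fold change of 0.08 (0.05 to 0.10). Ptprm had 4 reads in Ctrl and 68 in cKO, a log2 fold change of 4.01 (2.90 to 6.24), and Ptprg 23 reads in Ctrl and 0 in cKO, where 3 reads is the limit that a count of 0 allows.

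**Figure D4:**
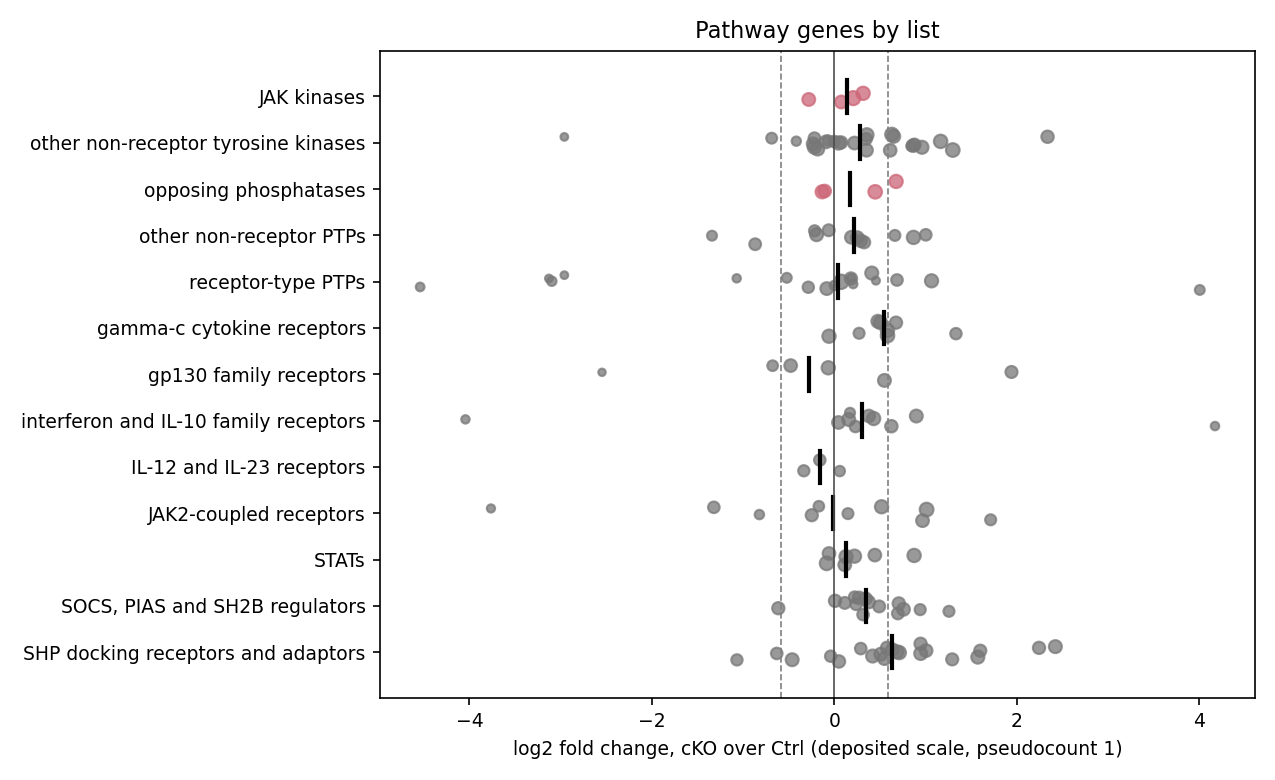
Log2 fold change, cKO over Ctrl, of the tested genes of each list on the deposited scale, with the 8 genes in red, a black bar at each list's median, larger points for higher mean levels and dashed lines at 1.5-fold. The 4 kinases lie between −0.28 and 0.32 and the 4 phosphatases between −0.13 and 0.68, within the range of their relatives.

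Upstream of the kinases, receptors were read by the JAKs they use. Of the 8 receptors of the common gamma chain group, which signal through JAK1 and JAK3, 2 were at least 1.5-fold higher, none lower, and the median log2 fold change was 0.55. The common chain itself, Il2rg, to which JAK3 binds, stood at 4920 and 4729 (−0.06, −0.12 to 0.00), whereas Il2ra, also a Treg marker, had 0.68 (0.55 to 0.81). Il9r was the highest, at 177 and 448 (1.33, 1.08 to 1.60). Of 10 interferon and IL-10 family receptors, which use JAK1 with JAK2 or TYK2, 3 were higher, 1 lower and the median was 0.31. Il10ra, the ligand-binding chain of the IL-10 receptor, stood at 1783 and 3328 (0.90, 0.82 to 0.99).

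Of 10 receptors coupled to JAK2, 3 were higher, 3 lower and the median was −0.01. At a mean level of 10 or more the extremes were Il5ra, a receptor chain of eosinophils and some B cells, at 1.72 (1.37 to 2.10), and Epor, the erythropoietin receptor, at 538 and 215, or −1.32 (−1.57 to −1.08), beside erythroid markers with a median of −1.23. Of 6 tested gp130 family receptors 1 was higher and 2 lower, with a median of −0.27, or −0.23 with zeros set to 3 reads. Lifr, the LIF receptor, was highest at 304 and 1171 (1.94, 1.76 to 2.13), and among those at a mean level of 10 or more Il11ra1 was lowest at −0.67 (−1.10 to −0.28). None of the 3 IL-12 and IL-23 receptors, which use JAK2 and TYK2, passed 1.5-fold, and their median was −0.16.

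Downstream and beside the kinases, 1 of 7 STATs was at least 1.5-fold higher and none lower, with a median log2 fold change of 0.13. That gene was Stat3, at 3811 and 6995 (0.88, 0.82 to 0.93), while Stat5a and Stat5b, the targets of IL-2 signalling, had −0.06 and 0.13. Of 15 SOCS, PIAS and SH2B regulators, which bind or block JAKs and STATs, 5 were higher, 1 lower and the median was 0.35. The extremes were Sh2b2, an adaptor of JAK2, at 1.26 (0.93 to 1.61) and Pias2 at −0.61 (−0.75 to −0.48). Of 21 receptors and adaptors that dock SHP-1 or SHP-2, 11 were higher, 2 lower and the median was 0.64, the highest of the pathway lists. Over all genes tested, 17.2% were at least 1.5-fold higher and 24.2% lower. B cell and macrophage markers had medians of 2.47 and 2.88, and the part of those cells in this list was not tested. Cd22, also a B cell marker, was highest at 880 and 4731 (2.42, 2.32 to 2.53). Pdcd1, which encodes PD-1, a receptor of activated T cells that recruits SHP-2, was lowest at 346 and 165 (−1.07, −1.36 to −0.79).

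These counts and medians use the levels as deposited. Once the T cell core markers were set equal, 6 of the 8 common gamma chain group receptors, 9 of the 15 SOCS, PIAS and SH2B regulators, 15 of the 21 SHP docking genes and 13 of the 26 other non-receptor tyrosine kinases were at least 1.5-fold higher. Under that scaling 3 list medians changed sign, to 0.01 for the gp130 family, 0.12 for the IL-12 and IL-23 receptors and 0.27 for the receptors coupled to JAK2.

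Markers of other cell types moved beside these genes, and their part in the values of the 8 members was not tested. None of the markers listed was at 0 in either library. The summed level of the 12 B cell markers was 9329 in Ctrl and 48736 in cKO, with a median log2 fold change of 2.47, and that of the 12 macrophage markers 4766 and 15986 (2.88). Summed granulocyte markers stood at 249392 and 339698, above the 61429 and 48619 of the 16 T cell core markers. The highest single level in Ctrl was 74422 among the granulocyte markers and 8098 among the T cell core markers. Such sums over different genes do not measure shares of cells. The 13 granulocyte markers had a median of 0.27, with 2 at least 1.5-fold higher and 3 lower. Of the 12 erythroid markers 11 were at least 1.5-fold lower, with sums of 41050 and 16803.

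Among 11 CD8 T and NK cell markers 6 were higher and the median was 0.63. Dendritic cell markers had a median of 0.24 with 2 of 8 higher, and platelet markers 0.96 with 3 of 5 higher. The 14 Treg markers had a median of −0.02 (0.27 with the T cell core markers equal), with 2 higher and 2 lower, and sums of 10936 and 11718. Of the 16 T cell core markers, 2 were at least 1.5-fold lower and none higher. All 8 members are known to be expressed in several of these cell types, so the level of none of them can be assigned to Treg cells alone.

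**Figure D5:**
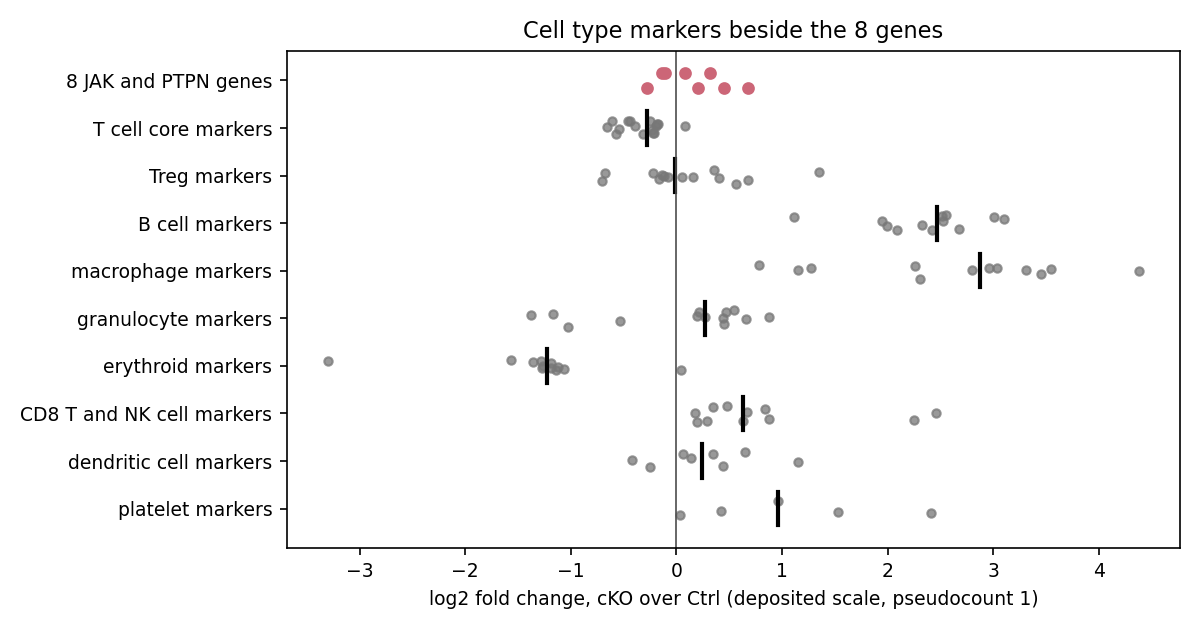
Log2 fold change, cKO over Ctrl, of the cell type markers of each list on the deposited scale, below the 8 genes in red, with a black bar at each list's median. B cell and macrophage markers lie to the right (medians 2.47 and 2.88), erythroid markers to the left (−1.23), and the 8 genes between −0.28 and 0.68.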

How the data were processed

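The authors isolated mRNA from splenic Treg cells, sequenced it on an Illumina instrument and, per the labels and the methods, aligned reads to mm10 with TopHat. The submitters' processing notes also list bcl2fastq 2.0, STAR, StringTie and DESeq2, with no role. The annotation, the counting and the use of strand are not given in the sources used here. The deposited values are a signal, whole read counts scaled by a single size factor in each library: 100% of values were whole multiples, within 0.01, of the smallest step (0.967 in Ctrl, 1.14 in cKO), and dividing by it recovered the reads. The libraries held 16187 and 14563 genes above 0. A count of 0 allows up to 3 reads, a level of 2.90 in Ctrl and 3.41 in cKO, and intervals cover counting error only.

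Fold changes used the deposited values, a pseudocount of 1, a minimum mean level of 1 over both libraries and the 1.5-fold threshold of the methods, and genes with values of at least this size are called at least 1.5-fold higher or lower. The interval of a fold change is the 95% exact Clopper-Pearson interval of the share of reads in cKO. For ratios between genes or classes, the log2 change is the conditional odds ratio of the reads, with its 95% interval and no pseudocount. Intervals of levels per kb are 95% Poisson intervals of the reads. Alternatives were library totals, TMM (edgeR 4.0.16), median of ratios (DESeq2 1.42.0), T cell core markers set to a median of 0, other pseudocounts, filters and thresholds. A two-sided exact binomial test on recovered reads, edgeR's exact test with an assumed variation of 0.2, both at a Benjamini-Hochberg adjusted p of 0.1 on 14863 genes with at least 10 reads, and the genes at a mean level of 1000 or more were added after the data were seen. They compare 2 libraries, not genotypes. The scripts were tested on simulated data.

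The members and lists were chosen with earlier results of these data known. Named besides the members were Mettl14, Foxp3, the gene with the largest rise and the largest fall past 1.5-fold in each pathway list at a mean level of 10 or more, and the 3 genes nearest to Ptpn1. Other genes were picked for their role, or, where said, for their values. Gene positions, transcripts and sequences came from GENCODE vM21 on GRCm38, and protein sequences were not used here. No sequence is shown for Ptpn2. Computation used Python 3.11.15, pandas 2.3.3, scipy 1.17.1 and R 4.3.3.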

Additional observations from a re-analysis of the deposited data

How the results depend on the processing

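No paired analysis was possible because a single library stands for each genotype, and no library could be left out. With the libraries scaled to their totals the log2 fold changes were Jak1 0.12, Jak2 0.23, Jak3 −0.37, Tyk2 −0.012, Ptpn1 0.59, Ptpn6 0.36 and Ptpn11 −0.22. With the T cell core markers equal they were Jak1 0.49, Jak2 0.60, Jak3 0.0040, Tyk2 0.36, Ptpn1 0.96, Ptpn2 0.18, Ptpn6 0.73 and Ptpn11 0.15, since that scaling adds 0.28 to every gene. Under TMM, median of ratios, and pseudocounts of 0.1 and 5, the members' values stayed within their counting intervals. The count of genes at least 1.5-fold higher, 2864, became 4543 with the T cell core markers equal, 1722 at a 2-fold threshold, 958 by edgeR with an assumed variation of 0.2 and 493 among genes at a mean level of 1000 or more. The count lower, 4028, became 2035 at a mean level of 10 or more, 1904 among genes above 0 in both libraries, 2603 by the exact binomial test, 1449 by edgeR and 253 at a mean level of 1000 or more. Members at least 1.5-fold higher, 1 on the deposited scale, were 3 with the T cell core markers equal and 0 both at 2-fold and by edgeR. The pairs past the threshold, 6, were 0 at 2-fold. The edgeR, binomial and high-level alternatives were chosen after seeing the data. Depth limits the members little, since each had at least 1358 reads in each library, while the spread between animals is not covered by any interval here.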
